A study of Mus musculus with 16 samples.

Results

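The collagen genes were followed in single-cell RNA sequencing of mouse chimeras that contained both Stat3 null and wild-type (WT) cells. The set was chosen by name: of 44 genes in the count matrix called Col, a number, a and a number, 38 had 100 or more unique molecular identifier (UMI) counts over all singlet cells, out of 29453 genes in the matrix. Just inside this limit lay Col6a6 with 117 UMIs, Col20a1 with 175 and Col17a1 with 187, and just outside it lay Col19a1 with 84 and Col6a4 with 80. By class the 38 members held 11 fibrillar collagens, 8 fibril-associated (FACIT) collagens, 5 type IV collagens of the basement membrane, 4 beaded filament collagens, 4 transmembrane collagens, 2 short-chain collagens, 2 multiplexins, the anchoring fibril collagen Col7a1 and Col26a1.

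Null cells descended from Stat3 null embryonic stem cells of CD1 background, in which a stretch of Stat3 exons had been replaced by a neomycin cassette, that carried tdTomato, were puromycin-selected and picked as colonies, and had been injected into CD1 host blastocysts; WT cells were the tdTomato-negative host cells of the same chimeras. Whole embryos of embryonic days (E) 7.5, 8.5 and 9.5 were sorted on tdTomato, several to a pool at the earlier stages and 1 to a pool at the last, which gave 2 null and 2 WT libraries for each of the earlier stages and 4 of each for the last. The study's supplement states that E7.5 embryos were classed as large or small and pooled. The 2 E7.5 libraries of a genotype may therefore differ in embryo size, and which library held which is not known. No WT donor line is among the samples analysed here, so loss of Stat3 and descent from a cultured, selected line cannot be told apart in any difference between null and WT cells. The letters A to D are only names for the libraries of a group, since libraries could not be tied to embryo pools. The labels list a pool of 1 embryo for each E9.5 pair of libraries, but the study's methods give fewer E9.5 embryos than pools, so some of these libraries may share an embryo, and p-values measure the spread between libraries, which may be in part technical.

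After removal of doublet calls and of 596 WT-sorted cells with a tdTomato UMI, 37841 cells were analysed, 17387 null and 20454 WT, in 87 cell types transferred by the authors from an embryo atlas. A library held 360 to 4327 cells and 20682659 to 138613245 UMIs. Stat3 itself, the targeted gene, was at 6.14 to 9.31 CPM (UMIs scaled to the library's total) in the 8 WT libraries and at 1.16 to 2.53 CPM in the 8 null libraries, with no overlap. Libraries WT C and WT D of E9.5 shared 292 cell barcodes, of which 10 had the same cell type in both, whereas no other pair of libraries shared more than 8; the calls between genotypes that were gained or lost without those cells are named below. All levels below are CPM of 3′-end UMIs, which are not divided by transcript length, so a level was compared between cell types, stages or libraries for a gene and not between genes.

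Collagens are triple-helical proteins of the extracellular matrix. Fibrillar collagens (types I, II, III, V and XI) assemble into fibrils, in which type V and type XI chains help to start fibril formation, and FACIT collagens decorate the fibril surface. Type IV collagen forms the sheet-like network of basement membranes, where the multiplexins also reside, and transmembrane collagens span the cell surface. In the embryo, type I and type III collagens mark mesenchyme, type II and type IX collagens mark the somite-derived cartilage lineage and notochord, and type IV collagens line epithelia and vessels.

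Several collagen genes lie in pairs. The starts of Col4a1 and Col4a2, the chains of the common type IV trimer, were 21 bases apart on opposite strands of chromosome 8, and those of Col4a6 and Col4a5 were 1309 bases apart on chromosome X. Col3a1 and Col5a2 lay tail to tail on chromosome 1 with 191744 bases between their starts. RefSeq promoter windows, from 250 bases before to 50 bases after a start, were found for 30 of the 38 members. The windows of the head-to-head pair Col4a1 and Col4a2, which overlap, are shown because these genes had nearly the same pattern over cell types, and those of Col1a2 and Col3a1 because they are fibrillar genes whose UMIs rose between stages. Each is written from 5′ to 3′ on the gene's own strand, and capitals mark a CCAAT box, a TATAAA box or a GGGCGG box on either strand.
Col4a1, GRCm38.p6, chr8:11312777-11313076, minus strand: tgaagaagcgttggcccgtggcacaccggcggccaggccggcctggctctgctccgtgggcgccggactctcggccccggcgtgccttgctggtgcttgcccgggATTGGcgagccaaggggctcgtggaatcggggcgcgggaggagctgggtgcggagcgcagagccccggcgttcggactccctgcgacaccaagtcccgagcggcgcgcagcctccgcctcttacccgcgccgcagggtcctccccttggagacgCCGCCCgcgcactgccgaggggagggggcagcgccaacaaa
Col4a2, GRCm38.p6, chr8:11312555-11312854, plus strand: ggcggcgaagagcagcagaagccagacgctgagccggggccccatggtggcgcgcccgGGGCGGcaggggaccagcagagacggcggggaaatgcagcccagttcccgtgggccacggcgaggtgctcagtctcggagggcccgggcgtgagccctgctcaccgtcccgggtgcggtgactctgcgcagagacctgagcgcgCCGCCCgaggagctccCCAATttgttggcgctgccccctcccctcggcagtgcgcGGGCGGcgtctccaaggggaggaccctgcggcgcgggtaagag
Col1a2, GRCm38.p6, chr6:4505368-4505667, plus strand: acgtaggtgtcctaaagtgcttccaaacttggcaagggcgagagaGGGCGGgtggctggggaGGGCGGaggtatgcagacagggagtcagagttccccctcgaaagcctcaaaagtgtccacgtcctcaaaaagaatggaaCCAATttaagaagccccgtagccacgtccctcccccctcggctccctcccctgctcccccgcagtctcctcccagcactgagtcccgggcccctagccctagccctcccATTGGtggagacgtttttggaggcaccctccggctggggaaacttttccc
Col3a1, GRCm38.p6, chr1:45311288-45311587, plus strand: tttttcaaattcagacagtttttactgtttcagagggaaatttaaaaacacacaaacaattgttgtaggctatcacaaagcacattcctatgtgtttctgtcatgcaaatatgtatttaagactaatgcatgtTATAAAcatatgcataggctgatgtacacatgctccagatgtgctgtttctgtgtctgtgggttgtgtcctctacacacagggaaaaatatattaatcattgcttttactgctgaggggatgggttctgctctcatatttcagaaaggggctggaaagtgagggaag

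The letters CCAAT, searched on both strands as were all motifs, stood in the windows of 12 of the 30 members against 37.4% of 32851 RefSeq windows of this length. GGGCGG stood in 20 of the 30 members against 35.7% of windows, and TATAAA in 4 against 13.6%. A member counted if any of its windows held the letters, and Col18a1, Col6a2 and Col9a1 had several. The shares are of windows, of which 27025 genes held 32851, so the measures are not alike. The STAT consensus letters TTCNNNGAA were in none of the 30 member windows and in 8.30% of all windows; Col5a2, Col1a1 and Col2a1 are among the members without a window and were not searched. A match of letters is a description of the window and not a binding site.

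Summed collagen levels were higher at each later stage in both genotypes. The 38 members together made up 324 and 264 CPM in the WT libraries of E7.5, 566 and 413 CPM in those of E8.5, and 934, 974, 772 and 1174 CPM in those of E9.5. In null libraries the sums were 284 and 242 CPM at E7.5, 542 and 437 CPM at E8.5, and 765, 777, 815 and 893 CPM at E9.5. The values of the 3 stages did not overlap in either genotype, while null and WT overlapped within each stage. Most of this lay in the 11 fibrillar members, whose WT sum went from 63.2 and 32.4 CPM at E7.5 to 305 and 167 CPM at E8.5 and to between 419 and 673 CPM at E9.5. The 5 type IV members stayed within 111 to 157 CPM in WT libraries of all stages except E9.5 WT D, at 263 CPM. That library held 17 of the 24 Parietal endoderm cells of E9.5, a type that lays down a thick basement membrane, and its type IV sum was 147 CPM without extra-embryonic types.

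**Figure D1:**
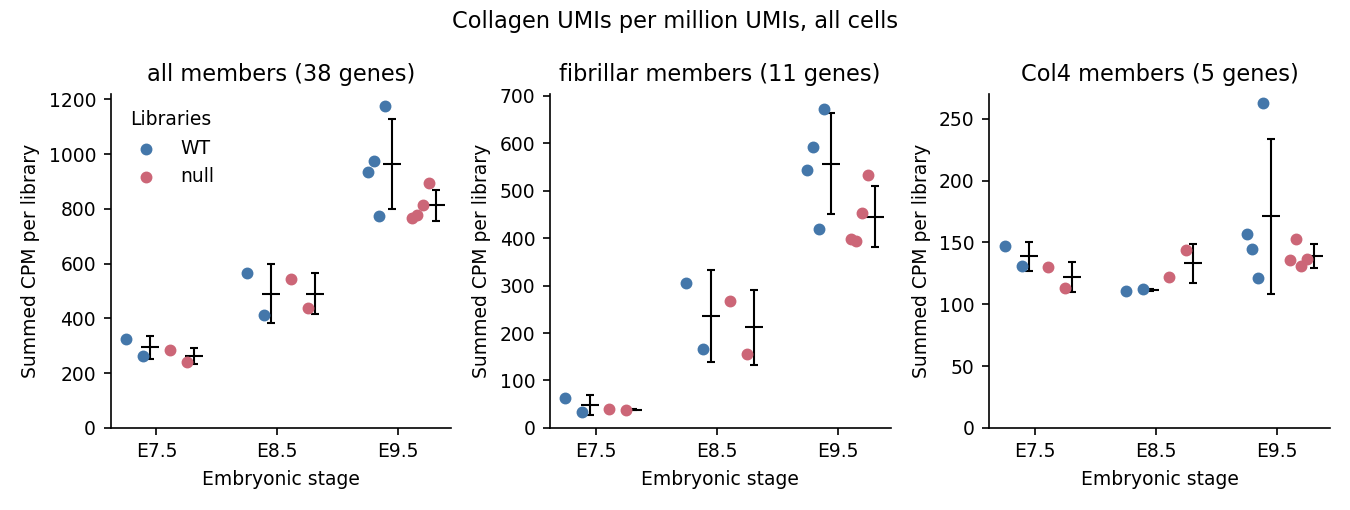
Summed CPM of all 38 collagen genes, of the 11 fibrillar and of the 5 type IV members in each library (points; all cells), by embryonic stage on the x axis, with WT in blue and null in red; black marks are the mean ± SD of a group. The fibrillar sums of E9.5 (394 to 673 CPM) lie above those of E7.5 (32.4 to 63.2 CPM), whereas type IV sums lie between 111 and 157 CPM apart from E9.5 WT D at 263 CPM.

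Over all analysed cells the fibrillar gene Col3a1 had the most UMIs of any member, followed by Col18a1 and Col4a1. Col3a1, the single chain of type III collagen, was at 1.14 and 0.221 CPM in the E7.5 WT libraries, 75.6 and 27.5 CPM in those of E8.5 and 141, 160, 122 and 196 CPM in those of E9.5. The null libraries held 0.775 and 1.26 CPM of Col3a1, then 74.4 and 29.0 CPM, then 103, 134, 136 and 164 CPM. Col3a1 was thus near absent from both genotypes at E7.5 and abundant in every library of E9.5, and null and WT overlapped at all 3 stages.
Col1a1 and Col1a2 encode the chains of type I collagen. Col1a1 went from 24.6 and 8.62 CPM in WT libraries of E7.5 to 75.3 and 31.9 CPM at E8.5 and to 113, 118, 53.8 and 152 CPM at E9.5, and in null libraries from 7.80 and 10.4 CPM to 55.2 and 23.1 CPM and to 64.7, 41.4, 76.5 and 101 CPM. Col1a2 went from 8.06 and 4.77 CPM to 57.1 and 32.6 CPM and to 116, 123, 87.2 and 144 CPM in WT, and from 6.81 and 9.09 CPM to 50.3 and 31.0 CPM and to 87.0, 76.0, 96.9 and 114 CPM in null libraries. Both genes overlapped between genotypes at every stage, and E9.5 WT C was the lowest WT library for each.

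Col2a1, the chain of type II collagen, was at 6.55 and 2.91 CPM in the E7.5 WT libraries, 28.7 and 27.1 CPM in those of E8.5 and 62.3, 71.4, 56.7 and 49.3 CPM in those of E9.5. Null libraries held 5.78 and 3.14 CPM, then 26.8 and 28.8 CPM, then 61.9, 64.3, 53.7 and 54.1 CPM of Col2a1. Its libraries were closely spaced within E8.5 and E9.5, in contrast to those of Col1a1 and Col3a1.
Col11a1, a type XI chain, was at 1.47 and 1.22 CPM, 16.3 and 10.8 CPM, and 42.7, 44.1, 37.6 and 45.4 CPM in WT libraries of the 3 stages. In null libraries Col11a1 was at 1.32 and 0.870 CPM, 14.5 and 8.69 CPM, and 38.2, 30.8, 34.5 and 34.7 CPM. Only E9.5 null A lay above the lowest WT library of E9.5, WT C.

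Among the type IV chains, Col4a1 was at 94.6 and 88.0 CPM in the E7.5 WT libraries, 62.1 and 63.9 CPM in those of E8.5 and 87.2, 77.5, 65.3 and 160 CPM in those of E9.5. Null libraries held 85.4 and 72.7 CPM, then 68.1 and 84.7 CPM, then 71.2, 86.1, 69.7 and 74.4 CPM of Col4a1. Col4a2 was at 42.9 and 37.1 CPM, 32.2 and 34.6 CPM, and 48.7, 47.1, 37.8 and 84.6 CPM in WT, and at 36.4 and 34.4 CPM, 38.2 and 42.4 CPM, and 44.3, 47.9, 42.2 and 42.6 CPM in null libraries. Both genes were already abundant at E7.5 and highest in E9.5 WT D. Both null libraries of E7.5 lay below and both of E8.5 above the WT libraries of their stage, and neither difference was called. Such separation of 2 against 2 libraries was not particular to these genes. At E8.5 Col18a1 and Col12a1 also lay above WT, and Col6a1 and Col25a1 lay below it. The E8.5 direction turned when levels were averaged over cell types, from a log2 ratio of group means, null over WT, of 0.28 to -0.03 for Col4a1 and of 0.27 to -0.02 for Col4a2.
Col18a1, a multiplexin of basement membranes whose carboxyl end is released as endostatin, was at 72.7 and 62.2 CPM, 80.4 and 80.9 CPM, and 96.2, 98.6, 82.7 and 97.2 CPM in WT libraries of the 3 stages. The null libraries held 63.2 and 50.4 CPM, 84.5 and 83.6 CPM, and 102, 85.4, 80.9 and 89.7 CPM of Col18a1.

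Col26a1 was at 4.64 and 2.49 CPM, 15 and 12.1 CPM, and 34.8, 34.5, 46.8 and 35.9 CPM in WT libraries of the 3 stages. Null libraries held 4.26 and 2.27 CPM, 14.9 and 12 CPM, and 33.2, 41.1, 47.9 and 37.6 CPM of Col26a1. Every E9.5 library of either genotype exceeded every E8.5 library.
Col9a1, a FACIT chain found on type II collagen fibrils, was at 5.71 and 4.03 CPM, 16.7 and 10.0 CPM, and 32.6, 33.9, 35.7 and 33.4 CPM in WT libraries and at 5.66 and 5.08 CPM, 15.2 and 11.3 CPM, and 29.4, 38.7, 37.2 and 31.8 CPM in null libraries. The transmembrane collagen Col23a1 was at 10.1 and 8.35 CPM, 15.1 and 11.7 CPM, and 22.5, 26.7, 28.2 and 28.3 CPM in WT and at 15 and 9.57 CPM, 14.7 and 9.17 CPM, and 22.4, 26, 21.3 and 22.2 CPM in null libraries. For both genes null and WT overlapped at every stage.
Outside the 12 members with most UMIs, mean WT levels at E9.5 lay between 22 CPM for Col5a1, a type V chain, and 0.107 CPM for Col6a6.

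In a fit over all cells of WT libraries (edgeR's quasi-likelihood test; called where the Benjamini-Hochberg adjusted p was under 0.05 and the log2 difference over 1), 18 of 34 members tested rose from E7.5 to E8.5 and 1 fell, while 8.47% of all 14441 genes rose and 8.51% fell. The median log2 difference was 1.34 over the members and 0.00 over all genes. The risers included Col3a1 (log2 6.71 ± 1.04 SE, edgeR adjusted p = 0.0199), Col11a1 (3.52 ± 0.27, 0.00103), Col1a2 (3.02 ± 0.43, 0.0126), Col2a1 (2.79 ± 0.38, 0.00984) and Col5a2 (2.17 ± 0.34, 0.0126). The FACIT chain Col9a3 was the member that fell, by 1.14 ± 0.22 on the log2 scale (edgeR adjusted p = 0.00917), from 3.64 and 4.64 CPM to 1.60 and 1.77 CPM. From E8.5 to E9.5, 11 of 37 members rose and none fell, against 6.35% of genes that rose and 3.29% that fell; the median log2 difference was 0.68 over the members and 0.02 over all genes. Col5a3 (1.74 ± 0.34, edgeR adjusted p = 0.00667), Col25a1 (1.49 ± 0.22, 0.00226), Col11a1 (1.35 ± 0.19, 0.00272), Col26a1 (1.19 ± 0.16, 0.00222), Col1a2 (1.09 ± 0.31, 0.0346) and Col9a1 (1.04 ± 0.20, 0.00848) were among them. These calls depended on single libraries, with 7 calls without E8.5 WT A and 9 without E7.5 WT B in place of 19 for the earlier step, and 5 without E8.5 WT B in place of 11 for the later step. Without extra-embryonic types 12 of 34 members rose and 2 fell at the earlier step, with a median log2 difference of 1.06 over the members. Of 14267 genes 1084 rose and 905 fell in that fit. A fit over all cells cannot tell a change in the share of a cell type from a change in RNA per cell. Within WT Mesenchyme, Col3a1 was at 7.87 and 2.12 CPM at E7.5 and 436 and 181 CPM at E8.5. Col1a2 was there at 30.9 and 16.5 CPM, then 333 and 196 CPM, and Col1a1 at 140 and 89.7 CPM, then 701 and 332 CPM. Differences within types between E7.5 and E8.5 were not tested.

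Collagen levels differed by orders of magnitude between cell types, which were ranked where at least 2 libraries held over 15 cells of a type. At E9.5 the 38 members together made up 12760 ± 3135 CPM (SD, n = 3 libraries with over 15 cells) in WT YS mesothelium, 3150 ± 533 CPM (n = 4) in Mesenchyme and 1951 ± 459 CPM (n = 3) in Allantois, with a median of 644 CPM over 40 types and 96.0 ± 19.7 CPM (n = 4) in Erythroid cells. Parietal endoderm, with over 15 cells in E9.5 WT D alone, was not ranked, and there Col4a1 by itself was at 21028 CPM, above the sum in YS mesothelium. At E8.5 YS mesothelium was the highest ranked type, at 3856 ± 1541 CPM (n = 2) with a median over 36 types of 473 CPM. At E7.5 the highest sums were in Visceral endoderm, at 660 ± 92.5 CPM (n = 2), Gut tube and Mesenchyme, and the median over 11 types was 312 CPM. The label YS mesothelium had weak support from the marker list used here: in WT cells of E9.5 only 1 of 5 markers of mesothelium and allantois was higher there than in other cells and 1 was at 0, so the name is the authors' and the type is set apart here by its collagens. For Sclerotome, Venous endothelium, Mesenchyme, Epidermis and Erythroid cells at E9.5 every listed marker was higher than in the other cells, whereas in Branchial arch neural crest only 2 of 5 were.

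The interstitial fibrillar genes shared their highest types. Col1a1 at E9.5 was at 3935 ± 1134 CPM (n = 3) in YS mesothelium, 830 ± 164 CPM (n = 4) in Mesenchyme and 378 ± 40.3 CPM (n = 3) in Allantois, with a median over types of 10.9 CPM, and YS mesothelium alone held 60.8% of its WT UMIs. The ranges of these 3 types did not overlap. After thinning of each cell to 10000 UMIs, 100% of 264 YS mesothelium cells and 86.5% of 282 Mesenchyme cells held a Col1a1 UMI, against 7.11% of 380 Erythroid cells, taken as the background from free RNA (100%, 98.6% and 17.4% before thinning, with median depths of 25690, 28043 and 22601 UMIs).
Col3a1 was at 2845 ± 476 CPM in YS mesothelium, 740 ± 159 CPM in Mesenchyme and 496 ± 206 CPM in Allantois, where the Mesenchyme and Allantois ranges overlapped. Col1a2 was at 2691 ± 778 CPM in YS mesothelium, 522 ± 89.9 CPM in Mesenchyme and 296 ± 31.4 CPM in Frontonasal mesenchyme. Col5a2, the second chain of type V collagen, was at 602 ± 110 CPM in YS mesothelium, 213 ± 48.9 CPM in Mesenchyme and 129 ± 16.5 CPM in Allantois.
Col6a3, a beaded filament chain, had 61.8% of its E9.5 WT UMIs in YS mesothelium, where it was at 90.5 ± 34.4 CPM.

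Among the cartilage-associated genes, Col2a1 had other high types, whereas Col9a1, Col9a2, Col9a3 and Col11a1 were highest in YS mesothelium at E9.5. Col11a1 was at 588 ± 190 CPM there, Col9a2 at 117 ± 81.0 CPM and Col9a3 at 40.0 ± 31.9 CPM (n = 3 each). Col2a1 was at 202 ± 17.1 CPM (n = 3) in Thyroid primordium, 158 ± 22.6 CPM (n = 4) in Sclerotome and 148 ± 30.1 CPM (n = 3) in Pharyngeal endoderm at E9.5, with overlapping ranges, and Sclerotome held 18% of its WT UMIs. Col9a1 was at 163 ± 45.0 CPM in YS mesothelium and 136 ± 19.9 CPM in Sclerotome, which overlapped, and Sclerotome held 27.1% of its UMIs. Col26a1 was highest in Sclerotome, at 134 ± 8.96 CPM, followed by Cranial mesoderm at 128 ± 19.6 CPM. At E8.5 Anterior somitic tissues led for both Col2a1 (158 ± 9.25 CPM, n = 2) and Col9a1 (108 ± 56.4 CPM, n = 2), though the Col9a1 range overlapped that of Sclerotome.

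Among the ranked types, Venous endothelium led for Col4a1 and Col4a2 and Epidermis for Col18a1, while Parietal endoderm, outside the ranking, was at 21028 CPM of Col4a1 and 10008 CPM of Col4a2 in E9.5 WT D. Col4a1 was at 381 ± 80.6 CPM (n = 3) in Venous endothelium, 333 ± 50.5 CPM (n = 3) in YS mesothelium and 159 ± 24.5 CPM (n = 4) in Cranial mesoderm at E9.5. Col4a2 was at 220 ± 49.3 CPM in Venous endothelium, 199 ± 31.5 CPM in YS mesothelium and 189 ± 18.2 CPM in Epidermis. Neither gene's level separated its 2 leading types. At E7.5 Col4a1 was highest in Visceral endoderm, at 314 ± 22.5 CPM (n = 2).
Col18a1 was at 513 ± 66.4 CPM (n = 4) in Epidermis, 473 ± 5.60 CPM (n = 2) in Amniotic ectoderm and 402 ± 60.5 CPM (n = 3) in Thyroid primordium, all overlapping. The other multiplexin, Col15a1, was at 35.2 ± 1.82 CPM (n = 3) in Venous endothelium, which held 44.4% of its WT UMIs, and at 4.88 ± 1.14 CPM (n = 2) in Amniotic ectoderm, with a median over types of 0. The transmembrane Col23a1 was highest in Branchial arch neural crest, at 91.6 ± 18.4 CPM (n = 4), and the short-chain Col8a2 in Amniotic ectoderm, at 18.3 ± 0.095 CPM (n = 2).

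**Figure D2:**
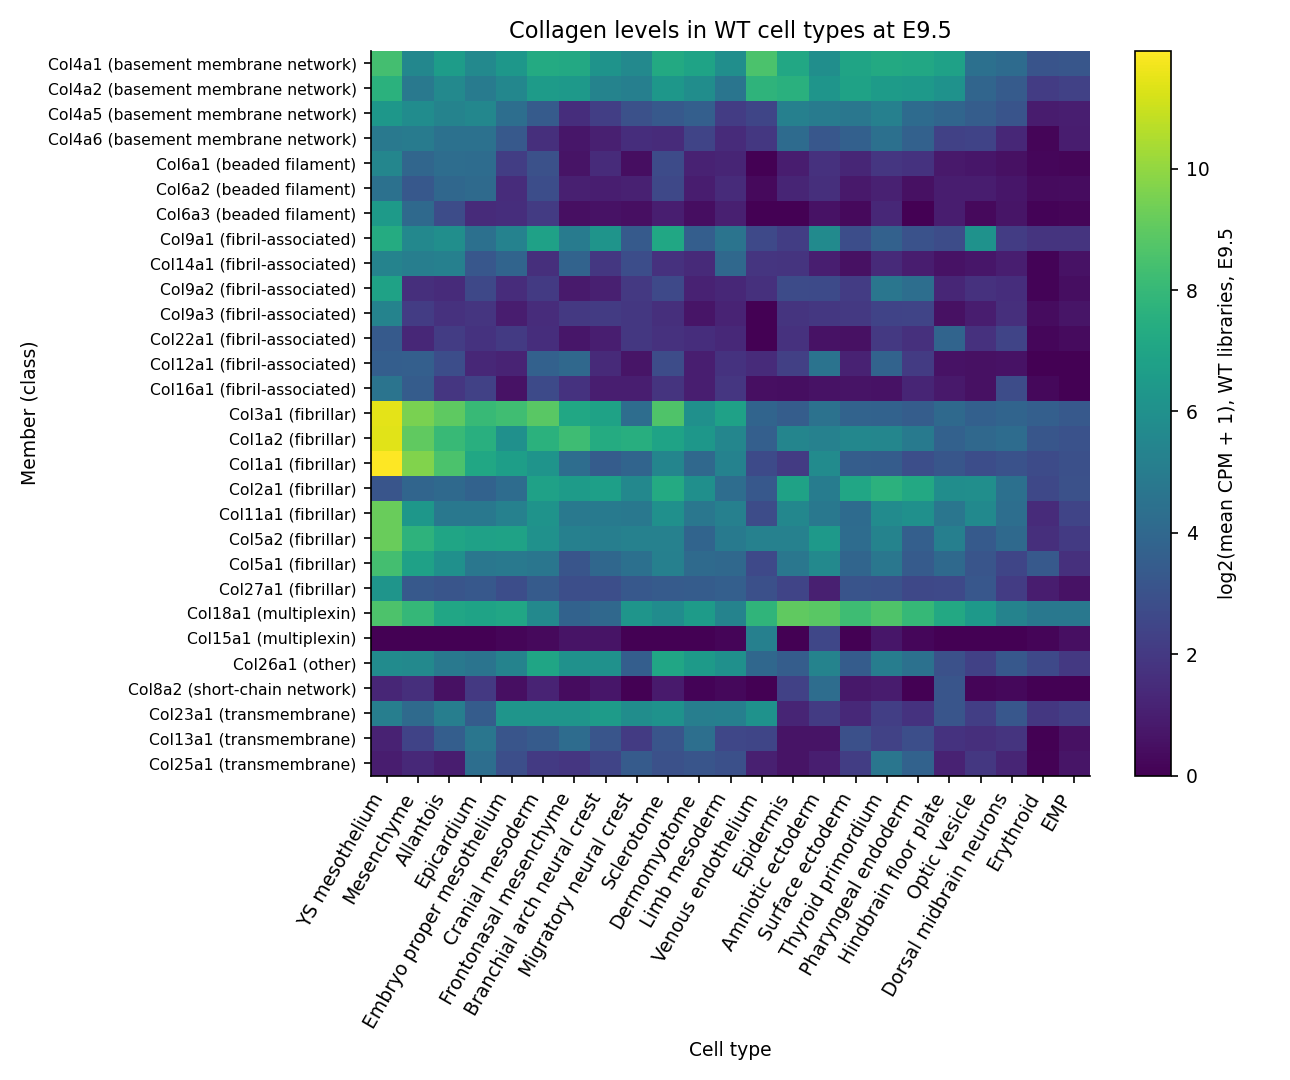
Mean WT level at E9.5, as log2(CPM + 1), of the 29 members (rows, with their class) that reached 10 CPM in a cell type, in 23 of the 40 cell types (columns) with libraries of over 15 cells; colour runs from dark blue (0) to yellow (highest). YS mesothelium is brightest for Col1a1, at 3935 CPM, Venous endothelium is the one bright field of Col15a1, at 35.2 CPM, and Epidermis of Col18a1 is at 513 CPM.

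Over the 40 cell types of E9.5, WT mean levels of Col4a1 and Col4a2 had a Spearman correlation of 0.96, those of Col4a5 and Col4a6 of 0.91, those of Col1a1 and Col3a1 of 0.90, those of Col5a1 and Col5a2 of 0.82 and those of Col1a1 and Col1a2 of 0.76. By contrast Col2a1 and Col9a1 had 0.13. The points share libraries and the types are not independent, so these are descriptions. Among 11771 genes compared, the genes most like Col1a1 over the types were Col3a1, Dact3 (0.83), Svep1 (0.82), S1pr2 (0.82) and Pdgfra (0.81), and those most like Col4a1 were Col4a2, Amotl1 (0.84), Traf3ip2 (0.84), Mdfi (0.80) and Wtip (0.76). For Col2a1 they were Akr7a5 (0.79), Bcl2l11 (0.79), Eya1 (0.77), Gas2 (0.76) and Etv1 (0.76).

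Within cell types, measured WT collagen levels were also called higher more often than lower at E9.5 against E8.5. In 31 cell types and 484 tests of a member in a type, 107 were called higher and 10 lower at E9.5 by edgeR, against 2.17% of all tests called higher and 1.03% called lower. Of the 13 members tested in Erythroid cells, whose levels are close to background, 10 were called higher. Without that type 97 of 471 tests were called higher and 10 lower. The background was itself higher at the later stage. In WT Erythroid cells all members together were at 41.0 ± 8.51 CPM (n = 2) at E8.5 and 96.0 ± 19.7 CPM (n = 4) at E9.5. The lowest mean Col3a1 level of a ranked type was 1.04 CPM at E8.5 and 8.44 CPM at E9.5. The part of free RNA in the calls of other types, above all those of low level, was not tested. The members called in most types were Col11a1, which rose in 12 of 28 types, Col3a1 in 11 of 29, Col2a1 in 10 of 30, Col5a2 in 10 of 28 and Col1a2 in 8 of 29, all fibrillar and none falling in any type, followed by Col9a1 in 7 of 21 and Col26a1 in 6 of 24. Other fibrillar members rose in few types, Col1a1 in 3 of 24, Col5a1 in 2 of 26 and Col27a1 in 1 of 16. The FACIT gene Col14a1 rose in 6 of its 7 types, by log2 7.08 ± 1.60 (edgeR adjusted p = 0.0114) in Embryo proper mesothelium and by 5.65 ± 0.49 (0.000171) in Allantois. The filter on low counts saw both stages together, so a gene could be tested in a type through its E9.5 libraries alone. The 6 of 7 is thus not a share free of the filter. Over all cells Col14a1 was at only 3.09 and 0.976 CPM in the E8.5 WT libraries. By type, Branchial arch neural crest had 10 risers, Migratory neural crest 9 and YS mesothelium 8, whereas none of 27 members in Sclerotome passed in either direction. Falls were spread over other classes: Col4a1 and Col4a2 in 2 types each, Col4a5 and Col4a6 in Limb mesoderm, and Col9a3, Col13a1, Col23a1 and Col25a1 in 1 type each. The number of calls was 58 without E8.5 WT B in place of 117.

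**Figure D3:**
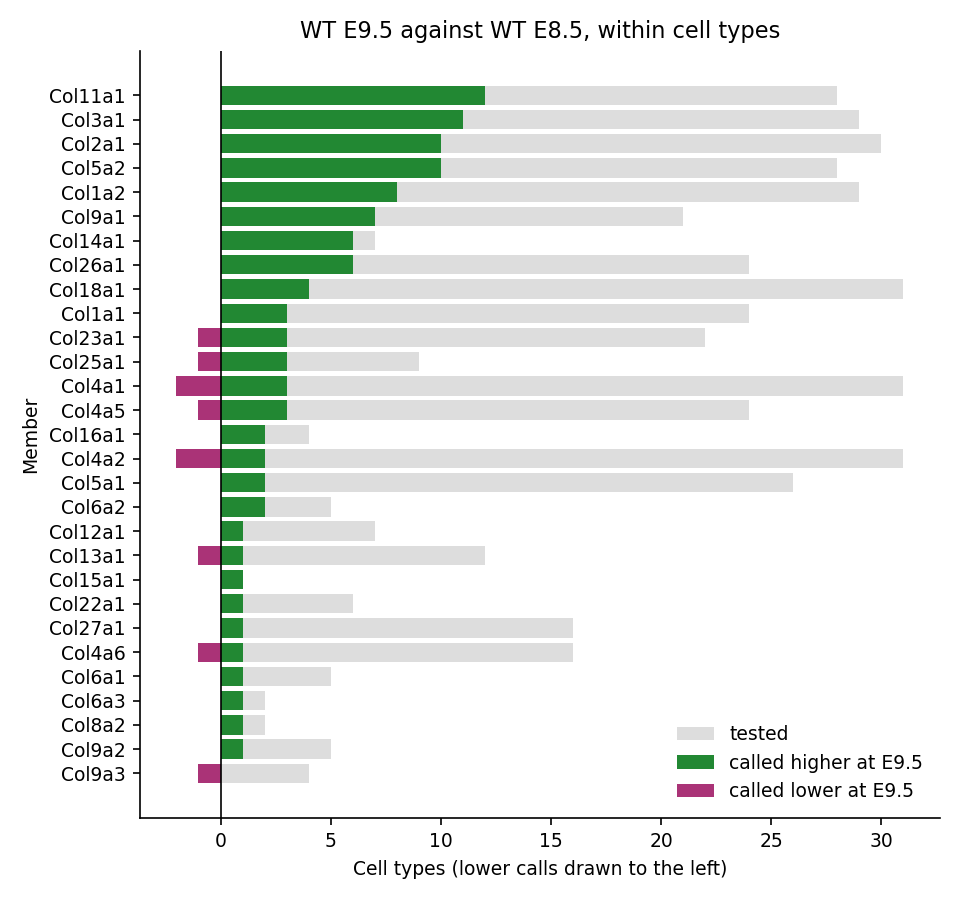
Number of cell types in which each member was called higher (green) or lower (purple, to the left) in WT cells of E9.5 against E8.5, over the number of types in which it was tested (grey). Col11a1 is called higher in 12 of 28 types and Col3a1 in 11 of 29, while lower calls number at most 2 types for any member.

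Between genotypes, Col5a2 was lower in null cells when levels were averaged over cell types and within several types. Type V collagen, built from Col5a1 and Col5a2 chains, is incorporated into type I collagen fibrils and limits their thickness. In all cells of E9.5, Col5a2 was at 36.5, 44.1, 34.5 and 50.2 CPM in WT libraries and at 17, 19.9, 25.5 and 30.7 CPM in null libraries. No null library reached the lowest WT library. The E8.5 libraries held 29.5 and 19.3 CPM in WT and 23.4 and 16.7 CPM in null, and those of E7.5 held 7.80 and 4.70 CPM in WT and 4.96 and 3.63 CPM in null, with overlap at both stages. Of 28 members over 1 CPM at E9.5, Col5a2 was the only one whose null libraries all lay below the WT libraries and none had them all above, compared with 3.63% and 3.79% of genes over 1 CPM, so that 1 of 28 is at the share of all genes. The edgeR fit over all cells did not call it (log2 -0.84 ± 0.20, edgeR adjusted p = 0.105).

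Cell type makeup differed between libraries, so levels were averaged over the cell types that had over 15 cells in every library of a stage, each type weighing the same. At E9.5 these 20 types did not include YS mesothelium or Allantois, which were missing at that size from some libraries. On that scale Col5a2 was at 40.9, 44.7, 36.6 and 39.1 CPM in WT and 24.7, 24.5, 25.4 and 28 CPM in null libraries of E9.5. The spread among libraries of one genotype was small and the gap between genotypes was clear. At E8.5 the values were 44.1 and 33.9 CPM in WT and 36.4 and 29.6 CPM in null, and at E7.5 8.83 and 5.30 CPM in WT and 5.89 and 3.16 CPM in null libraries. The limma fit took log2(CPM + 1) in each type before averaging, which gives types of low level more weight than the averaged CPM does. As means of those logs Col5a2 was at 4.74, 4.91, 4.79 and 4.66 in WT and 3.56, 3.76, 3.83 and 4.03 in null libraries of E9.5. Over the 3 stages it was lower in null by 0.79 ± 0.12 (SE) on this scale (limma adjusted p = 0.000662), or by 0.51 ± 0.11 (limma adjusted p = 0.0114) when the log was taken of the averaged CPM. In the fit of averaged logs it was the 1 member of 17 called lower, with none called higher, when 2.72% of 9338 genes were called lower. It ranked 53 of 9338 genes by p and 20 by size. An unadjusted p under 0.05 was reached by 8 of the 17 members, against 20.8% of genes; the next was Col18a1 (log2 -0.19 ± 0.06, limma adjusted p = 0.0791), and Col1a1 had -0.43 ± 0.16 (0.126). The partner chain Col5a1 had -0.16 ± 0.09 (limma adjusted p = 0.332) and the neighbour Col3a1 -0.15 ± 0.17 (0.648), or 0.10 ± 0.15 (0.749) from the averaged CPM. The median over members was -0.15 and over all genes -0.03. Without E9.5 null A, 4 members were called, without E7.5 null A 2, without the shared barcodes 2 (Col23a1 was added, at -0.29 ± 0.08, limma adjusted p = 0.0428), and from E7.5 and E8.5 alone none.

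Lower Col5a2 was also seen within cell types. At E9.5, 6 of 571 tests of a member in one of 37 cell types were called by edgeR, all lower in null, when 0.0641% of all tests were called lower; 92 of the 571 had an unadjusted p under 0.05, against 6.27% of all tests. Without the filter on low counts, 16 tests of a member were called lower and 3 higher in null. Of the 6 calls with that filter, 5 were Col5a2. In Sclerotome it was at 36.9, 42.1, 30.5 and 39.4 CPM in WT and 12.2, 18.6, 16.6 and 17.2 CPM in null libraries, a log2 difference of -1.16 ± 0.13 (edgeR adjusted p = 4.56e-05). In Frontonasal mesenchyme it was at 37.4, 48.5, 27.4 and 31.9 CPM in WT and 8.42, 16.6, 8.88 and 14.1 CPM in null libraries (-1.55 ± 0.21, edgeR adjusted p = 0.000144). In both types the groups did not overlap, with null lower, which held in 22 of the 33 types of E9.5 in which Col5a2 was tested.
Col5a2 was also called in neural tissues, where its level was low. In WT Erythroid cells of E9.5, taken as background, it was at 2.10 ± 0.87 CPM (n = 4; 1.20 to 2.95 CPM), and the part of free RNA in these calls was not tested. In Optic vesicle it was at 7.33, 9.20, 10.3 and 10.8 CPM in WT and 3.25, 3.09, 4.61 and 3.41 CPM in null libraries (-1.41 ± 0.21, edgeR adjusted p = 0.000833), and in Ventral hindbrain progenitors at 6.77, 11.5, 13.3 and 12.9 CPM in WT and 3.21, 2.17, 6.82 and 3.23 CPM in null libraries (-1.57 ± 0.28, 0.00584). The WT libraries of both types lay above the Erythroid range and 1 null library of the latter lay within it. The null C library of the latter lay just above the lowest WT library. In Amniotic ectoderm 2 WT libraries were at 105 and 72.2 CPM and 2 null libraries at 41.6 and 39.3 CPM (-1.16 ± 0.24, edgeR adjusted p = 0.0451). This call was lost with DESeq2, with the WT-sorted tdTomato cells kept, with only the null-sorted cells that held a tdTomato UMI, and without WT A, null A or null B, at log2 -1.21 to -0.89. Without the shared barcodes Col5a2 was also called in Migratory neural crest (-1.23 ± 0.23, edgeR adjusted p = 0.0415).
The remaining call was Col3a1 in Placodal ectoderm, at 28.1 and 18.9 CPM in 2 WT libraries and 8.22 and 5.37 CPM in 2 null libraries of 17 to 73 cells each (-1.67 ± 0.42, edgeR adjusted p = 0.0479). The Col3a1 call was lost with DESeq2, with RLE size factors, with the WT-sorted tdTomato cells kept, without the shared barcodes and without any of the 4 libraries it rests on, while its log2 difference stayed between -2.12 and -1.39.

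Across the 33 cell types of E9.5 in which Col5a2 could be tested, its log2 difference was negative in 33, with a median of -1.10, and 27 had an unadjusted p under 0.05. It ran from -1.68 in Hindbrain neural progenitors to -0.13 in YS mesothelium. The 3 types with the highest WT levels, YS mesothelium, Mesenchyme (-0.25) and Allantois (-0.25), were among the 4 smallest differences, and none of the 3 had an unadjusted p under 0.05. Epicardium, at -0.88 ± 0.16, passed the adjusted threshold (edgeR adjusted p = 0.00943) but not that of fold. These tests share libraries and are not independent. Of 9851 genes tested in 10 or more types at E9.5, 40 were lower in null in every type. Of all genes tested in any number of types, 11 were called lower in 5 or more. At E8.5 the difference was negative in 13 of 14 types, with a median of -0.43 and with Hindbrain floor plate at 0.52, and at E7.5 in 4 of 4. Whether the difference of Col5a2 itself grew from E8.5 to E9.5 was tested over all cells: no member passed the test of the difference between stages, and none had an unadjusted p under 0.05, when 0.0197% of genes passed and 2.82% had such a p.

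**Figure D4:**
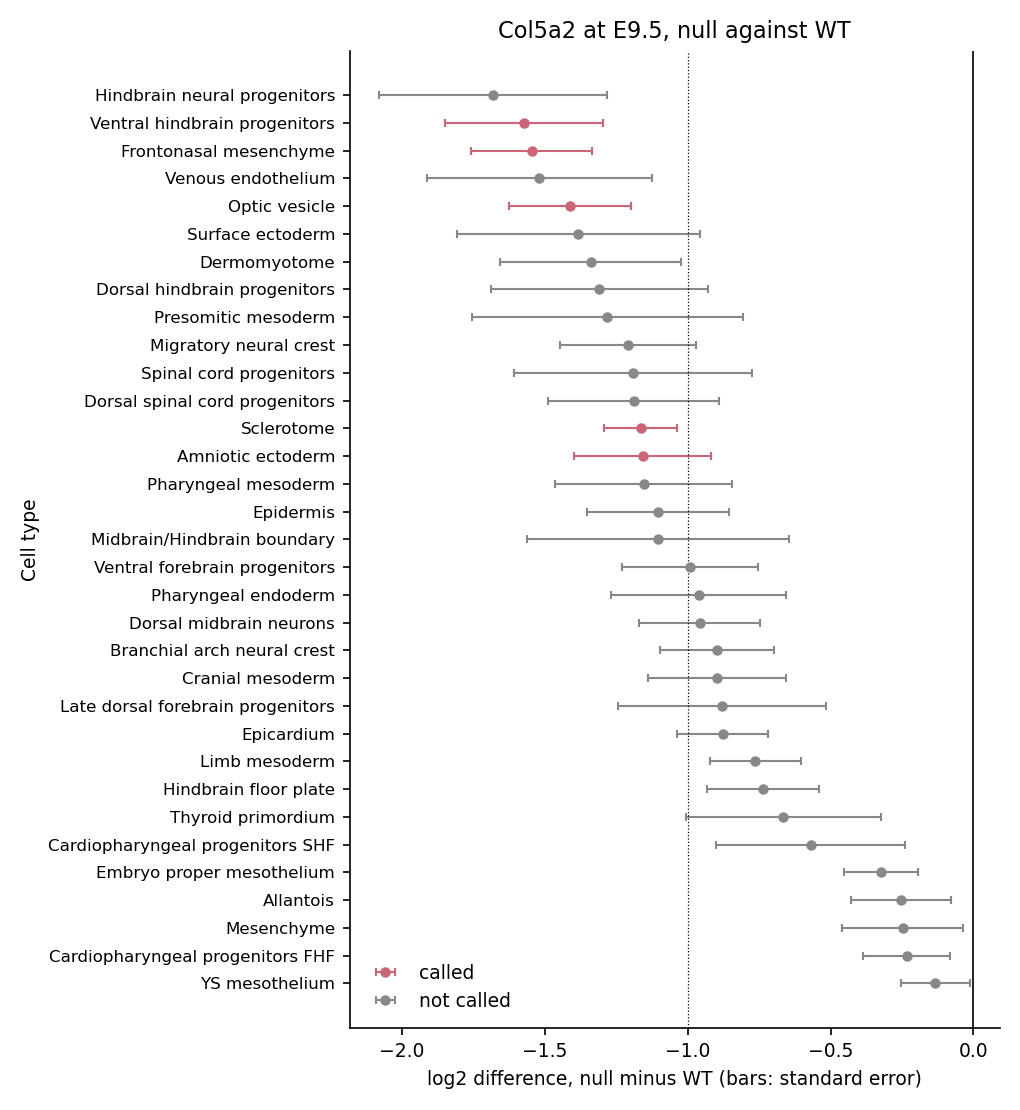
Log2 difference of Col5a2 between null and WT libraries of E9.5 (x axis, negative is lower in null) in each of 33 cell types (y axis). Bars are 1 standard error derived from the edgeR test statistic, red points were called, and the dotted line marks a log2 difference of -1. All points lie left of 0, from -1.68 in Hindbrain neural progenitors to -0.13 in YS mesothelium.

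The ratio of the chains of a trimer needs no scaling between libraries, but over all cells it can move with their cell type makeup. In WT cells Col5a1 over Col5a2 was 0.991 and 1.07 in E7.5 libraries, 0.536 and 0.621 in E8.5 libraries and 0.614, 0.506, 0.499 and 0.517 in E9.5 libraries. In null cells the ratio was 1.18 and 1.27, then 0.704 and 0.817, then 1.07, 0.933, 0.768 and 0.721. Null libraries exceeded every WT library at each of the 3 stages, and the log2 ratio was higher in null by 0.51 (two-sided exact permutation with stages kept, p = 0.000794, which is the lowest that 2520 arrangements can give; Benjamini-Hochberg adjusted p = 0.00476 over 6 pairs of chains). This result uses the same Col5a2 counts as the tests above and is not separate evidence. The arrangements treat the libraries of a stage as independent units. Null and WT libraries came from the same pools, and some E9.5 libraries may share an embryo, so the p-value may be too small. For Col1a1 over Col1a2 the log2 ratio was lower in null by -0.48 (exact permutation p = 0.0254, adjusted p = 0.0762), which did not pass. Col4a1 over Col4a2 was 1.61 to 1.89 in all 8 libraries of E9.5 and 2.11 to 2.37 in those of E7.5, with no difference between genotypes that passed (log2 -0.04, exact permutation p = 0.370, adjusted p = 0.618), and the same held for Col6a1 over Col6a2, Col9a1 over Col9a3 and Col4a5 over Col4a6. Among WT cell types of E9.5 with enough UMIs, Col5a1 over Col5a2 ran from 0.208 in Frontonasal mesenchyme to 1.36 in Posterior somitic tissues.

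**Figure D5:**
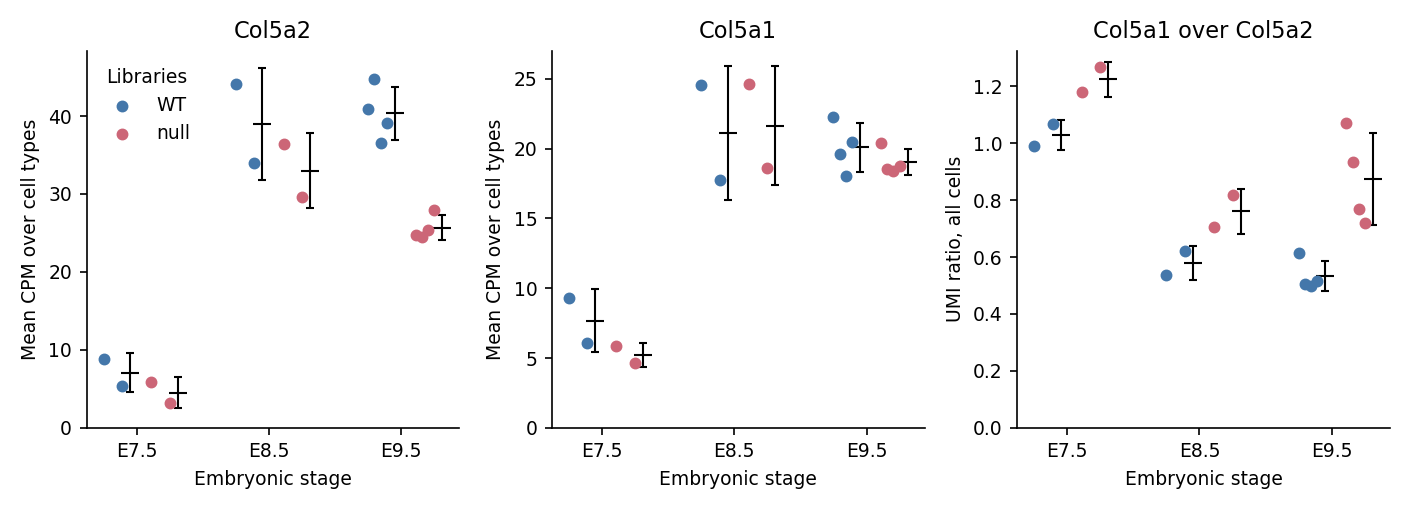
Col5a2 and Col5a1 levels per library as mean CPM over cell types (left and middle) and the UMI ratio of Col5a1 over Col5a2 in all cells (right), by stage; points are libraries (WT blue, null red) and black marks the mean ± SD. At E9.5 Col5a2 is at 24.5 to 28 CPM in null and 36.6 to 44.7 CPM in WT libraries, Col5a1 overlaps, and the ratio is 0.721 to 1.07 in null and 0.499 to 0.614 in WT libraries.

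No collagen gene, Col5a2 included, was called between genotypes over all cells. edgeR called 0 members at each of the 3 stages, where in order of stage 2.36%, 0.0278% and 0.58% of genes were called in either direction, and DESeq2 also called 0 at each stage. An unadjusted p under 0.05 was reached by 0, 2 and 3 members, against 12.9%, 4.56% and 10.3% of genes. Within cell types, 0 of 75 tests were called at E7.5 and 0 of 258 at E8.5, by edgeR and by DESeq2, where 0.186% and 0.0616% of all tests were called; 6 and 25 had an unadjusted p under 0.05, against 4.06% and 4.32% of all tests. These counts of 0 were not stable to single libraries: without E7.5 WT B 2 tests were called at E7.5 and 1 gene over all cells, and without E8.5 null A 8 tests were called at E8.5. The fibrillar sum at E9.5 was 557 ± 106 CPM (SD, n = 4) in WT and 445 ± 64.5 CPM (n = 4) in null libraries. YS mesothelium made up 2.03 ± 1.22% of WT and 0.958 ± 0.573% of null cells of E9.5 and held 32.8 ± 11% and 19.4 ± 7.5% of the fibrillar UMIs, and without that type the sums were 374 ± 29.0 and 358 ± 24.8 CPM.

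The genes that make, modify, bind and regulate collagen were counted from fixed lists. Of the 32 genes of collagen synthesis and processing, which include the prolyl and lysyl hydroxylases, the chaperone Serpinh1 and the lysyl oxidases, none was called between genotypes at any stage, over all cells or within types. Over all cells 28, 31 and 32 were tested in order of stage, when 2.36%, 0.0278% and 0.58% of genes were called. Within types there were 152, 394 and 736 tests, when 0.186% and 0.0616% of all tests were called at E7.5 and E8.5. At E9.5, 181 of 324312 tests of all genes were called higher and 208 lower. The counts of 0 for this list are near those shares. From E7.5 to E8.5 in WT cells 3 of 30 tested rose and 1 fell, close to or below the 8.47% and 8.51% of all genes; they were Loxl1 (log2 1.08), Loxl3 (1.40) and P4ha3 (1.98), and Pcolce2 (-1.12). From E8.5 to E9.5 only Pcolce, an enhancer of procollagen trimming, rose (1.01), 1 of 32 against 6.35% of genes. Of 12 collagen receptors, 2 of 10 tested rose and 1 fell at the earlier step, against 8.47% and 8.51% of genes. At the later step 3 of 12 rose, against 6.35% of genes. Ddr2, a receptor tyrosine kinase for fibrillar collagen, rose at both steps (log2 3.88 and 1.23), Itga2 rose at the earlier and Gp6 at the later step, and Adgrg6 fell and then rose (-2.67 and 2.50). Adgrg6 was also the receptor called lower in null cells, at E7.5 over all cells (log2 -3.03 ± 0.55, edgeR adjusted p = 0.0393). It was 1 of 8 receptors tested there, when 2.36% of genes were called in either direction. The Adgrg6 call was lost without null A, null B or WT A (log2 -3.92, -2.84 and -2.66). The E7.5 WT libraries held 114 and 167 cells of ExE ectoderm and 31 and 71 of Visceral endoderm, and no null library held over 15 of either. Without extra-embryonic types Adgrg6 no longer passed the filter on low counts, and calls over all genes went from 22 higher and 301 lower to 4 and 7.
Of 21 other genes of fibrillar matrix tested, 13 rose from E7.5 to E8.5 and 3 fell, against the same shares of all genes. Among the risers were Postn (log2 6.01), Dcn (4.08) and Lum (8.20), and those that fell were Eln, Acan and Matn1. In null cells averaged over types, 2 of 13 tested were called lower, Emilin1 (log2 -0.33 ± 0.08, limma adjusted p = 0.0299) and Fbn2 (-0.24 ± 0.06, 0.0439), against 2.72% of all genes. Within types of E9.5, Vcan was called higher in Epidermis (1.21 ± 0.18, edgeR adjusted p = 0.00018). This was 1 of 355 tests of the list, when 181 of 324312 tests of all genes were called higher. Of 21 other basement membrane genes, 2 of 20 tested rose from E7.5 to E8.5 (Npnt and Fras1) and 2 of 21 from E8.5 to E9.5 (Lamc3 and Lama2), shares near the 8.47% and 6.35% of all genes. Nid1, which links laminin and type IV collagen networks, was the 1 of 16 tested that was called lower in null cells averaged over types (-0.27 ± 0.07, limma adjusted p = 0.0434), against the same 2.72%. Of 12 transcription factors known to regulate collagen genes, all tested, 5 rose at the earlier step (Sox5, Sox6, Sox9, Twist1 and Scx) and Sox17 fell, against 8.47% and 8.51% of genes, and at the later one Runx2 rose while Sox7 and Sox17 fell, against 6.35% and 3.29%. Scx was called lower in null Epicardium of E9.5 (-1.93 ± 0.40, edgeR adjusted p = 0.0433), 1 of 164 tests of this list, against 0.0641% of all tests called lower.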

How the data were processed

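The deposited file held raw UMI counts per gene and cell, which the authors made with Cell Ranger (mm10, per the labels; 10x Genomics 3′ chemistry) and filtered on UMIs, genes, mitochondrial and ribosomal share; the authors also deposited doublet calls, tdTomato status and cell types assigned by label transfer. Here 192657 barcodes were listed, 41832 were in the matrix, and 3395 doublet calls were left out. Cells held 10003 to 99964 UMIs.

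Counts were summed per library and cell type (over 15 cells, at least 2 libraries a group) and over all cells. 8189 of 29453 genes (predicted, mitochondrial, ribosomal, haemoglobin, sex-linked Xist, Tsix and Y genes, tomato) were left out of fits. edgeR 4.0.16 was run with TMM factors, filterByExpr and no block, and DESeq2 1.42.0 was an alternative. Standard errors beside edgeR differences were derived from the log2 difference and its test statistic, since the test itself reports none. Means over types of log2(CPM + 1) were tested with limma 3.58.1, with stage and genotype as terms, for genes of mean CPM 5 or more, calling adjusted p under 0.05 alone, as in the test between stages. Simulated 4-fold changes in 200 genes were recovered in 100% in E9.5 Mesenchyme and in the averaged levels, where 1.46% of other genes were also called, and in 99.5% over all cells of E8.5. The simulated averaged levels held 10099 genes, so false calls were a larger part of all calls than the adjusted threshold of 0.05 allows. Calls of averaged levels near that threshold, those of Col23a1, Emilin1, Fbn2 and Nid1, are therefore weak. The changed genes were drawn from the more abundant ones, with a fixed dispersion and no difference between pools, and averaged levels were simulated for E9.5 alone. The simulation therefore does not show the power for smaller differences or for members of low level.

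The 12 members with most UMIs were described in every library and others by class, range or call. The members and lists were chosen with earlier results of these data known. Libraries were matched to stage and genotype but not to embryo pools. All intervals cover the spread between libraries only.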

Additional observations from a re-analysis of the deposited data

Results flagged for a closer look

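Of 36 groups of 4 libraries tested for a value standing apart, 3 were picked out by Dixon's test at E9.5, and chance picks about 1 group in 20. Col18a1 was lowest in WT C at 82.72 CPM, with the other WT libraries at 96.16 to 98.61 CPM. Col26a1 was highest in the same library at 46.82 CPM, with the others at 34.5 to 35.88 CPM. WT C shared 292 cell barcodes with WT D, and the part of this in the levels was not tested. The ratio of Col5a1 over Col5a2 was highest in WT A at 0.6137, with the others at 0.4989 to 0.5173, and all 4 null libraries lay above it.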

How the results depend on the processing

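No called difference of a member changed direction under the alternatives run. Calls of the listed genes are in none of the counts below, and apart from Adgrg6 they were not compared under the alternatives. Of 36 uncalled null-to-WT ratios of the 12 most abundant members over all cells, 8 had the other sign when levels were averaged over cell types and 1 when mitochondrial, ribosomal and haemoglobin genes were left out of the total; those that moved beyond the spread between libraries were Col23a1 (log2 0.41 to -0.13) and Col9a1 (0.14 to -0.33) at E7.5 and Col18a1 (0.06 to -0.17, or 0.04 without those genes), Col4a1 (0.28 to -0.03) and Col4a2 (0.27 to -0.02) at E8.5. Between genotypes within types, calls were 0 in the reported fits at E7.5 and E8.5 and ranged over 0 to 2 at E7.5 and 0 to 8 at E8.5 when a library was left out (2 without E7.5 WT B, 1 without E7.5 null A, 8 without E8.5 null A, 2 without E8.5 null B), with 1 at E8.5 without a filter on low counts. At E9.5, 6 calls became 4 to 10 when a library was left out (10 without null D) and 19 without the filter, of which 3 were higher in null and 16 lower. Over all cells, E7.5 had 0 to 1 call (1 without WT B). Averaged over types, 1 call became 1 to 4 (4 without E9.5 null A, 2 without E7.5 null A), 2 with over 50 cells per library, 2 without shared barcodes, and 0 from E7.5 and E8.5 alone. In WT, 117 calls within types became 58 to 137 when a library was left out; over all cells 19 became 7 to 16 for the earlier step, and 11 became 5 to 11 for the later step, or 18 with no fold threshold. The log2 ratio of Col1a1 over Col1a2 ranged from -0.57 to -0.37, past the adjusted threshold without E8.5 WT B, E8.5 null A or E9.5 WT C. Where not named, the cause was not tested. Col5a2 was called lower in 4 to 13 types under the alternatives and was negative in all types tested except 1 of 32 without E9.5 WT A. Over 50 cells per library left no type at E7.5. Counting each called difference under each alternative, the call between genotypes was kept 95 times and lost 15 times, and that between WT stages 1070 and 263 times. No paired analysis was possible because libraries could not be matched to the embryo pools that the labels number, so differences between pools are part of the error in every fit. Members of few UMIs, such as Col6a6 with 117, could not be compared within types at this depth.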

Other observations

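These values were chosen after the results were seen. The genes tested within 1 Mb of the Col5a2 start, compared between genotypes as means over types of log2(CPM + 1), were Gulp1 (log2 0.06 ± 0.05, limma adjusted p = 0.522), Col3a1 (-0.15 ± 0.17, 0.648) and Wdr75 (0.04 ± 0.04, 0.628), and none passed the test that Col5a2 passed (-0.79 ± 0.12, 0.000662). The genes called lower in null cells in most types at E9.5 were Grb10, Pusl1, Hist1h4i, Akr1e1, Akr1b8 and H19, and Col5a2, with 5 types, was among the 11 genes called lower in 5 or more.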
